A study of Mus musculus with 6 samples.

Results

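Hnrnpd, the gene of the AUF1 proteins, and its closest paralogs Hnrnpab and Hnrnpdl were followed through every counted 3′ segment and transcript in bone marrow-derived macrophages (BMDMs) from which exons 3 and 4 of Hnrnpd had been removed. The members were all rows of the deposited count table that carry 1 of these 3 gene symbols: 45 of 177303 counted regions, which make up 21 of 142567 transcripts (11 of Hnrnpd, 3 of Hnrnpab and 7 of Hnrnpdl). The question was whether the paralogs changed when Hnrnpd was lost. BMDMs of C57BL/6J mice were compared between 3 control libraries (genotype hnRNPDfl/fl, loxP-flanked alleles without a Cre label) and 3 M-Δx3,4 libraries (LysCre+hnRNPDfl/fl). Per the study's methods, the mice were 6 to 8 weeks old. Bone marrow cells of both groups were differentiated for 10 days in medium conditioned by L929 fibroblasts, and all 6 cultures received 100 ng/ml LPS for 4 hours, so the data hold no unstimulated state. Cre recombinase was driven by the lysozyme 2 gene of the myeloid lineage, cells in the culture that do not express it keep the floxed exons, and the labels do not say whether a library stands for 1 mouse.

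AUF1 proteins are RNA-binding proteins with a pair of RNA recognition motifs that bind AU-rich elements in the 3′ UTRs of many inflammatory mRNAs, and depending on the target and the cell they promote decay, stability or translation. Alternative splicing of exons 2 and 7 gives 4 isoforms named after their size, p37, p40, p42 and p45. HnRNP A/B (Hnrnpab) and hnRNP D-like (Hnrnpdl) share the paired recognition motifs, and the mRNAs of Hnrnpd and Hnrnpdl have alternative exons in their 3′ UTRs through which the proteins are known to limit their own and each other's mRNA by nonsense-mediated decay (NMD). From the coding sequences of GENCODE vM21, the p45 protein has 355 residues, and 67.6% of the 284 residues aligned with hnRNP A/B and 66.6% of the 320 aligned with hnRNP DL were identical. The identity between hnRNP A/B and hnRNP DL was 57.5%.

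All 3 genes lie on the minus strand of mm10. Hnrnpd (chr5:99955935-99978938) and Hnrnpdl (chr5:100033577-100039664) are neighbours with 54.6 kb between them, and Hnrnpab is at chr11:51600100-51606847. The reads come from 3′ ends primed at the poly(A) tail, so the last 30 bases of the annotated mRNAs are shown for the short and the long end of each gene. The first 2 are the ends of p37 and p45 of Hnrnpd, and the polyadenylation hexamer (AATAAA or ATTAAA, searched on the mRNA strand) is in capitals. Where a window holds AATAAA again, as that of Hnrnpdl-202 does, only the occurrence nearest its start is in capitals.
Hnrnpd p37, chr5:99961002-99961031, minus strand: ggttttttAATAAAtccttttgtataaaaa
Hnrnpd p45, chr5:99955935-99955964, minus strand: ttaacaATTAAActttccagcactcatgca
Hnrnpab-203, chr11:51601174-51601203, minus strand: cggcactagggggctgattttattaccagg
Hnrnpab-201, chr11:51600100-51600129, minus strand: gttttcttaAATAAAttgagggagaccttg
Hnrnpdl-201, chr5:100034727-100034756, minus strand: ttaaacctcaAATAAAtgcttccttatgtg
Hnrnpdl-202, chr5:100033577-100033606, minus strand: caaaatgAATAAAgtctttttaaaataaaa
These are sequences of GENCODE vM21, which uses the same build as the files (GRCm38, mm10). The hexamer started 22 bases before the end of p37 and 24 before that of p45, and the short end of Hnrnpab had neither hexamer. Of 58797 protein coding transcripts, 44.1% held one of the hexamers in their last 30 bases.

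The deleted exons 3 and 4 have 169 and 162 bases, 331 together, which is not a multiple of 3. In silico, p37 without them keeps its first 78 residues of 287 and meets a stop codon after residue 81, 317 bases before the last exon junction, and p45 keeps 97 of 355 with a stop codon after residue 100. A stop codon at such a distance before a junction is the textbook trigger of NMD. The qRT-PCR primers used by the study for exon 3 both lie inside the removed sequence of p45.
Primer exon 3 S, chr5:99967364-99967383, sense: atgtttataggaggccttag
Primer exon 3 A, chr5:99967247-99967266, antisense: agcacaaagccaaaacccct
In the count table, the deleted exons are covered by 3 regions with few reads. The region that overlaps exon 3 by 89 bases had 1, 0 and 1 counts in control replicates 1 to 3 and 4, 0 and 0 in M-Δx3,4 replicates 1 to 3. The region over 134 bases of exon 4 had 2, 0 and 2 counts in control and 2, 0 and 0 in M-Δx3,4, and the region that reaches 5 bases into exon 4 had 1, 0 and 2 counts in control and 0 in each M-Δx3,4 library. All of these except the 4 counts of M-Δx3,4 replicate 1 are at or under the limit of 3 counts that a count of 0 allows, so removal of the exons was not measurable at this depth, and 3′ reads do not show which upstream exons an mRNA contains.

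The 6 libraries had 5852374 to 9008878 counts summed over all regions, and the values below are counts divided by a library factor (0.86 to 1.31). Over the 4723 genes with a mean above 50, log2 counts of control replicates 1 and 3 correlated least (0.764, across genes). Control replicate 1 correlated more closely with each of the 3 M-Δx3,4 libraries (0.926 to 0.971) than with the other controls. The same held for control replicate 2 (0.921 to 0.965 with M-Δx3,4 libraries). Control replicate 3 correlated at 0.764 to 0.895 with the other libraries. Transcripts were tested with edgeR's quasi-likelihood test where at least 1 library exceeded the median of all normalized counts (4.89), and a transcript was called at an unadjusted p under 0.05 with a difference of 1 or more on the log2 scale. At this threshold 1071 of 32475 transcripts were called, 1340 had an unadjusted p under 0.05, and the smallest adjusted p over all of them was 0.824. All 8 macrophage markers examined were detected, and the summed level of the list was 6452 to 7034 normalized counts in control and 5413 to 7072 in M-Δx3,4 libraries. B cell markers summed to 22.2 to 38.8, T cell markers to 5.80 to 37.2, with Cd3e and Cd3g at 0, neutrophil markers to 73.6 to 183, with Elane at 0, and fibroblast markers to 1.16 to 43.0 normalized counts over all libraries. The summed levels of the groups overlapped in all 5 lists. Among the macrophage markers Lyz2 was lower in each M-Δx3,4 library, as given below, and 1 of the 4 fibroblast markers was called lower, Col3a1, with 13.9, 6.13 and 0 normalized counts in control and 0 in each M-Δx3,4 library. The part of these cells in the results was not tested.

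Hnrnpd transcripts that end at the short 3′ UTR were lower in all M-Δx3,4 cultures, which differed widely among themselves. The p37 transcript (ENSMUST00000072750), which p40 and p42 match count for count, had 178, 104 and 69.6 normalized counts in control replicates 1 to 3 and 52.8, 12.6 and 16.0 in M-Δx3,4 replicates 1 to 3. Each M-Δx3,4 library was under each control library, but M-Δx3,4 replicate 1 kept 45.1% of the control mean while replicates 2 and 3 kept 10.8% and 13.7%. On the log2 scale the groups differed by -2.11 (SE 0.54, 95% interval -3.27 to -0.96), with an unadjusted p = 0.00144 and an adjusted p = 0.984 by edgeR's quasi-likelihood test. In a bulk culture, fewer cells that transcribe the gene and less RNA per cell cannot be told apart, and the share of recombined cells in M-Δx3,4 replicate 1 was not tested.

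Of the 11 Hnrnpd transcripts 8 passed the filter and 7 were called lower, where 2.05% of all transcripts tested were called lower. The 7 hold only 4 different sets of counts, so they are not 7 observations. The 3 that did not pass the filter, the retained intron Hnrnpd-206 and the protein coding Hnrnpd-207 and Hnrnpd-210, had at most 4 counts in any library. The p37 value is the sum over the 30 UTR bases left in exon 8 and the start of exon 9, and a read across that junction may be counted in both, so the exon 9 region was also tested alone: its counts were 103, 85 and 50 in control and 48, 11 and 18 in M-Δx3,4 libraries, and the groups differed by -1.89 on the log2 scale (SE 0.53, edgeR adjusted p = 0.843).

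Among the 18 different regions of Hnrnpd, 12 were tested and 10 called lower (2.13% of all regions tested were called lower), all between exon 6 and the short end in exon 9. The called regions of exon 9 are nested and share reads, as do those of exon 8, so the 10 are not 10 observations. Counts thinned out toward the 5′ end in both groups. The 30 UTR bases of exon 8 had 50, 17 and 10 counts in control and 6, 2 and 3 in M-Δx3,4 libraries. Exon 7, which is spliced into p42 and p45, had 18, 7 and 3 counts in control and 1, 2 and 2 in M-Δx3,4. Exon 6 had 10, 5 and 1 counts against 1, 0 and 0, and exon 5 no more than 1 count in any library. The regions of exons 6 and 7 passed the filter through control libraries alone, so their calls depend on the group in which they are higher. The alternative exon in the Hnrnpd 3′ UTR (chr5:99962098-99962204), part of NMD transcripts, had 1, 2 and 1 counts in control and 1, 0 and 0 in M-Δx3,4 libraries, too few to describe its splicing. Per 100 counts of the exon 9 region, the exon 8 segment had 48.5, 20 and 20 in control and 12.5, 18.2 and 16.7 in M-Δx3,4 libraries. Only control replicate 1 stood well apart, and the two-sided exact permutation test gave p = 0.1, below which 3 against 3 libraries cannot go (adjusted p = 0.3).

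**Figure D1:**
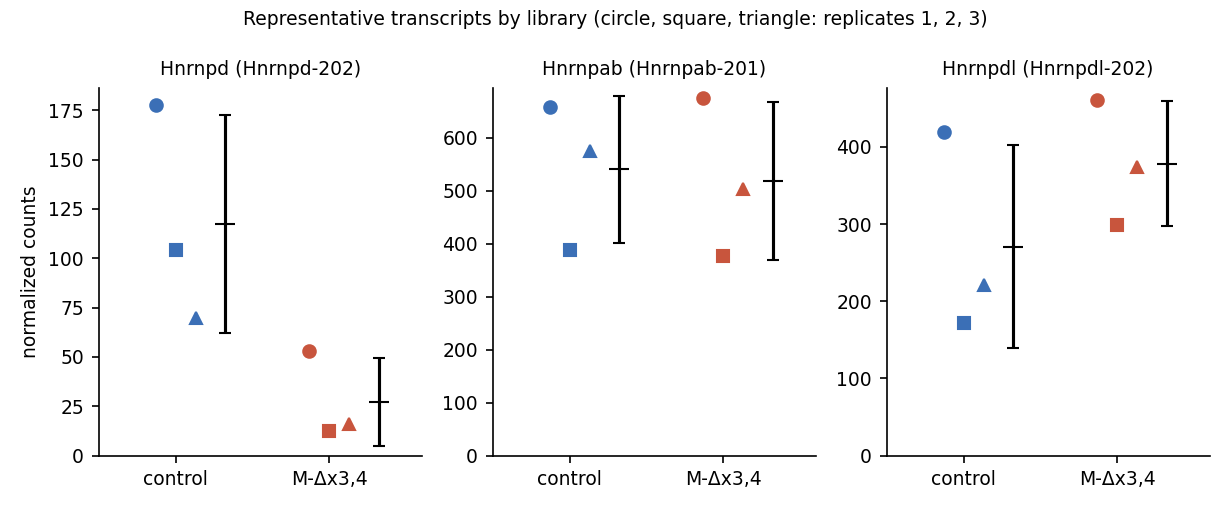
Normalized counts (y axis, from 0) of the representative transcript of each gene in the control (blue) and M-Δx3,4 (red) libraries. Symbols are replicates 1 to 3 and bars the mean ± SD (n = 3). The p37 transcript of Hnrnpd separates the groups, with M-Δx3,4 replicate 1 at 52.8 above the others of its group. The libraries of Hnrnpab and Hnrnpdl overlap.

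For the long 3′ UTR of p45 the libraries of the groups overlapped. So did the Hnrnpd totals over all regions that do not overlap each other. These were 374, 201 and 114 normalized counts in control and 147, 127 and 162 in M-Δx3,4 libraries (exact permutation test, p = 0.4). The region counted for p45 contains the p37 region and runs 5067 bases further, and the counts of this distal part alone were 136, 80 and 30 in control and 87, 115 and 189 in M-Δx3,4 libraries. Normalized, this was 91.5 ± 62.2 against 114 ± 29.7 (SD, n = 3), with overlapping libraries. The distal share of the reads was therefore higher in each M-Δx3,4 library (82.3% ± 15.5) than in any control library (47.6% ± 9.7), and the exact permutation test gave the p of 0.1 that is its minimum (adjusted p = 0.3 over the 6 within-gene shares tested). The 3′ counts do not tell which of the distal reads come from the p45 mRNA. Of its 4789 stretches of 30 bases, 78 also occur in transcripts of other genes, and it holds 3 runs of 6 or more A, the longest of 8, where the proximal part has 1 run of 7. The part of internal priming or shared sequence in these counts was not tested. The distal part held 10 ATTTA pentamers, the core of AU-rich elements, and the proximal part 0. Of 543 3′ UTRs with a length within 10% of that of p45, 99.4% held the pentamer, with a median of 9, and 49.7% held at least as many as p45.

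Hnrnpab, which encodes an RNA-binding protein of the same fold, showed no difference beyond the spread between libraries. Its protein coding transcript with the most reads, Hnrnpab-201 (ENSMUST00000074669), had 658, 387 and 575 normalized counts in control and 674, 377 and 502 in M-Δx3,4 cultures. The values of the groups interleaved, from 377 to 674. The difference on the log2 scale was -0.06 (SE 0.34, edgeR adjusted p = 0.998), and its 95% interval ran from 0.583-fold to 1.58-fold. Hnrnpab-202 and Hnrnpab-203 had log2 fold changes of -0.10 and -0.09, with standard errors of 0.35 each. All 3 Hnrnpab transcripts, each with 1 counted region, were tested, and 0 had an unadjusted p under 0.05. They are nested and share most reads: the common 483 bases held 522, 323 and 445 counts in control and 638, 320 and 565 in M-Δx3,4 libraries. The distal remainder of Hnrnpab-201 took 7.8%, 14.8% and 10.3% of the reads in control and 7.4%, 17.5% and 14% in M-Δx3,4 libraries, which overlap (exact permutation test, p = 0.8). On the opposite strand, 3 regions of Phykpl cover the same bases and had 0 counts in all libraries against 3175 on Hnrnpab, so the counting kept the strands apart here.

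Hnrnpdl had positive log2 fold changes in all 7 transcripts, none of which passed the test. Hnrnpdl-202 (ENSMUST00000128187), the representative, had 420, 172 and 220 normalized counts in control and 461, 299 and 374 in M-Δx3,4 cultures. Control replicate 1 lay among the M-Δx3,4 libraries, and the other controls lay under all of them. The difference on the log2 scale was 0.48 (SE 0.37, edgeR adjusted p = 0.984), with a 95% interval of 0.806-fold to 2.42-fold. The 7 transcripts all passed the filter, with log2 fold changes from 0.13 to 0.68, a median of 0.53 beside -0.03 over all transcripts tested, and 0 were called higher, where 1.25% of all transcripts tested were (0 had an unadjusted p under 0.05). They share reads, so their common sign is not 7 observations. Without control replicate 1 the difference of Hnrnpdl-202 was 0.95 on the log2 scale (SE 0.34, edgeR unadjusted p = 0.0108 and adjusted p = 0.217), and 4 of the 7 transcripts had an unadjusted p under 0.05. In that fit 14.8% of all transcripts had such a p, against 4.13% with all libraries.

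**Figure D2:**
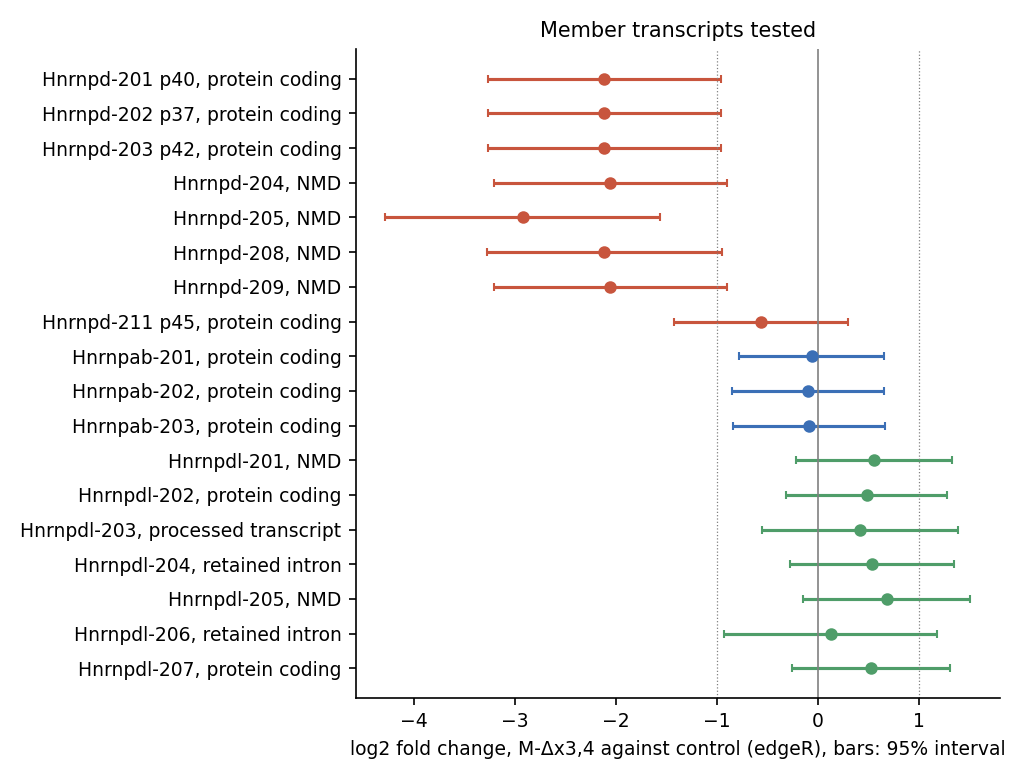
log2 fold change of M-Δx3,4 against control (x axis) for the 18 member transcripts tested, with 95% intervals from edgeR's quasi-likelihood fit. Red is Hnrnpd, blue Hnrnpab and green Hnrnpdl, and dotted lines mark a log2 fold change of 1 in either direction. The 7 Hnrnpd transcripts that hold reads of the short end or upstream lie between -2.92 and -2.05, p45 at -0.57, Hnrnpab near 0 and Hnrnpdl between 0.13 and 0.68.

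The Hnrnpdl reads were spread over a short and a long 3′ end and over the alternative UTR exon. The proximal 507 bases (chr5:100034478-100034984) had 182, 81 and 130 counts in control and 263, 198 and 266 in M-Δx3,4 libraries. As normalized counts they were 212, 82.8 and 151 against 257, 192 and 203, so the groups overlap only through control replicate 1. The distal remainder of Hnrnpdl-202 held 47.6%, 48.1% and 29.3% of the reads of its final region in control and 40.6%, 31.7% and 41.9% in M-Δx3,4 libraries (exact permutation test, p = 0.6). The UTR exon of the NMD transcripts (chr5:100035635-100035739) had 13, 11 and 16 counts in control and 16, 16 and 26 in M-Δx3,4 libraries and differed by 0.19 on the log2 scale (SE 0.50, edgeR adjusted p = 0.988). Per 100 counts of the proximal part this exon had 7.14, 13.6 and 12.3 in control and 6.08, 8.08 and 9.77 in M-Δx3,4 libraries. The libraries overlap, and the mean difference of -3.0 was within the spread (two-sided exact permutation p = 0.3, adjusted p = 0.6 over the 6 within-gene shares). This share was chosen after the counts were seen.

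Of the 16 different regions of Hnrnpdl 11 were tested, with 0 called and 0 at an unadjusted p under 0.05, where 1.29% of all regions tested were called higher and 2.13% lower. All 11 had a positive log2 fold change. In 2 of them, both at the last coding exon (chr5:100036104-100036124 and chr5:100036104-100036195) and with the same reads, every M-Δx3,4 library was above every control library, as in 4.03% of all regions tested: their counts were 14, 12 and 6 in control and 28, 18 and 31 in M-Δx3,4 libraries and the difference on the log2 scale 0.94 (SE 0.51, edgeR adjusted p = 0.982). Among transcripts, the NMD transcript Hnrnpdl-205 had 44.2, 28.6 and 38.3 normalized counts in control and 57.7, 52.4 and 68.0 in M-Δx3,4 libraries, without overlap, as in 4.1% of all transcripts tested. On the log2 scale it differed by 0.68 (SE 0.39, edgeR adjusted p = 0.984). The 5 regions under the filter, in coding exons farther upstream, had 0 to 3 counts in each library, and 1 of them had no count at all.

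**Figure D3:**
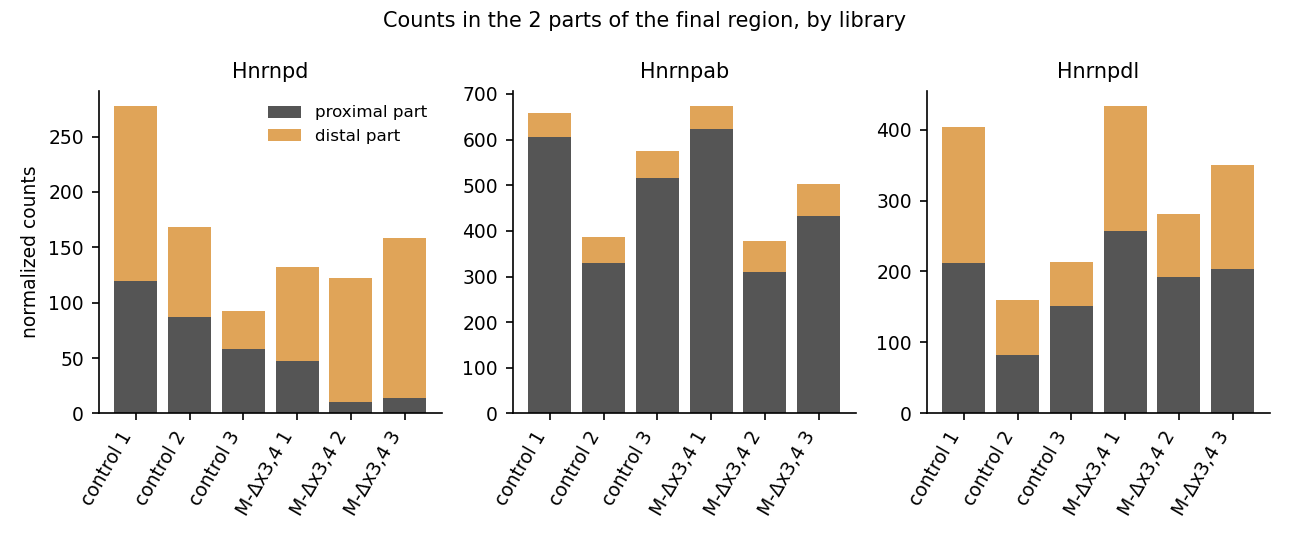
Normalized counts by library in the proximal part (grey) and the distal part (orange) of the final counted region of each gene (y axes from 0, different scales). In Hnrnpd the grey part shrinks in M-Δx3,4 libraries to 47.0, 10.7 and 13.8 while the orange part lies within the range of the control libraries, and in Hnrnpab and Hnrnpdl the 2 parts keep overlapping shares.

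Divided by the length of the proximal part, the order of the 3 genes was the same in all 6 libraries: Hnrnpab above Hnrnpdl above Hnrnpd. In control replicate 2 this order depended on the division, as the undivided counts of the proximal part were 85 for Hnrnpd and 81 for Hnrnpdl. Reads primed at the poly(A) tail need not increase with region length, so values per kb and their shares do not measure mRNA abundance. Undivided gene totals had means of 540 for Hnrnpab, 296 for Hnrnpdl and 230 for Hnrnpd in control libraries. In M-Δx3,4 libraries they were 518, 414 and 145. In control replicate 2 the total of Hnrnpd (201) was above that of Hnrnpdl (188). In control libraries Hnrnpab had 1003 ± 292 normalized counts per kb (SD, n = 3), Hnrnpdl 293 ± 127 and Hnrnpd 152 ± 53.1, where the ranges of Hnrnpdl (163 to 417) and Hnrnpd (99.8 to 206) overlap. In M-Δx3,4 libraries the levels were 943 ± 327, 429 ± 68.6 and 41.0 ± 34.6. The TPM values in the authors' table gave the same order of control means for the transcripts with the same short ends, although Hnrnpdl-201 (11.7) was just under p37 (11.9) in control replicate 2. The means were 72.9 ± 24.8 for Hnrnpab-203, 20.2 ± 9.0 for Hnrnpdl-201 and 14.1 ± 7.6 for p37, against 70.2 ± 26.3, 30.2 ± 5.5 and 3.3 ± 2.8 in M-Δx3,4 libraries. Summed per kb, Hnrnpab and Hnrnpdl had 1295 ± 418 in control and 1372 ± 394 in M-Δx3,4 libraries (exact permutation test, p = 0.8), and the 3 genes together 1447 ± 442 and 1413 ± 428. Hnrnpd made up 10.9% ± 4.1 of this sum in control and 2.6% ± 1.5 in M-Δx3,4 libraries, Hnrnpdl 19.6% ± 3.0 and 31.3% ± 4.8, and Hnrnpab 69.4% ± 3.1 and 66.1% ± 3.8. For Hnrnpd and Hnrnpdl control and M-Δx3,4 libraries stood apart (exact permutation test, p = 0.1 each, adjusted p = 0.25 over 5 such values), and for Hnrnpab they overlapped (p = 0.5). These shares cover the proximal parts only. They leave out the distal part, which held 47.6% ± 9.7 of the reads of the final Hnrnpd region in control and 82.3% ± 15.5 in M-Δx3,4 libraries. A share rises when another member falls, so ratios of pairs were formed as well. The ratios with p37 also fall when p37 alone falls, and only that of Hnrnpab to Hnrnpdl leaves Hnrnpd out.

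Ratios within a library need no scaling between libraries. The log2 ratio of p37 to Hnrnpab-201 counts was -1.89, -1.89 and -3.05 in control and -3.67, -4.90 and -4.97 in M-Δx3,4 libraries, a mean difference of -2.24. The log2 ratio of p37 to Hnrnpdl-202 was -1.24, -0.72 and -1.66 in control and -3.12, -4.57 and -4.54 in M-Δx3,4 libraries, a difference of -2.87. In both ratios all M-Δx3,4 libraries were under all control libraries, at the smallest p of the exact permutation test (p = 0.1, adjusted p = 0.117 over 7 ratios). With gene totals over regions that do not overlap, which include the distal part of Hnrnpd, the difference shrank to -0.43 for Hnrnpab, with overlapping libraries (exact permutation p = 0.5), and to -1.07 for Hnrnpdl, without overlap. The ratio of the paralogs to each other, formed after the values were seen, was also lower in M-Δx3,4 libraries. The log2 ratio of Hnrnpab-201 to Hnrnpdl-202 was 0.65, 1.17 and 1.38 in control and 0.55, 0.33 and 0.43 in M-Δx3,4 libraries, where control replicate 1 stood closest to M-Δx3,4 (exact permutation test, p = 0.1).

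**Figure D4:**
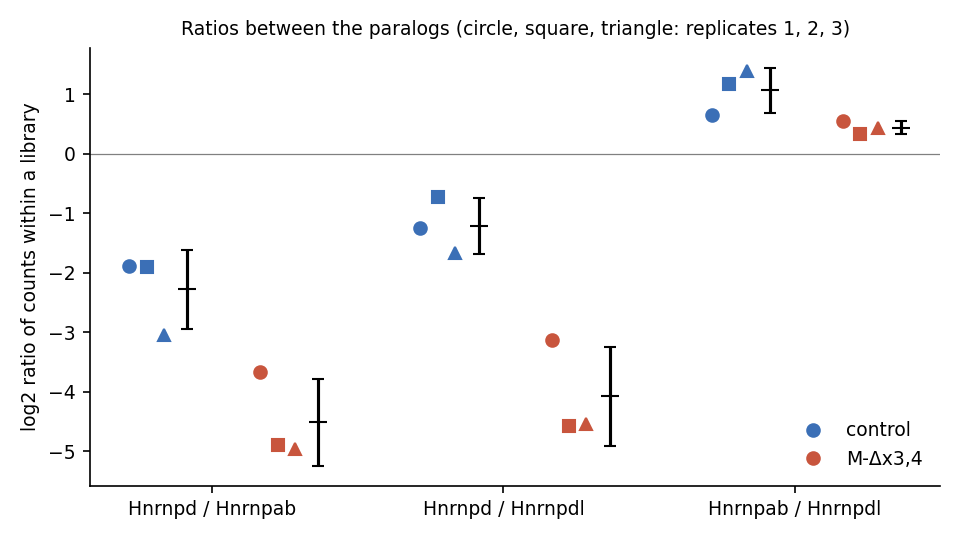
log2 ratio of counts within each library (y axis) for the 3 pairs of representative transcripts in control (blue) and M-Δx3,4 (red) libraries, with mean ± SD (n = 3) in black. Both ratios with p37 of Hnrnpd drop by more than 2 on the log2 scale, and the ratio of Hnrnpab to Hnrnpdl is lower by 0.63 without overlap.

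The genes whose profile over the 6 libraries was most like that of a member were found by the root mean square difference of centred log2 values among 4722 genes. For Hnrnpd they were Igkc (0.79), H2-Aa (0.82) and Axl (0.83), all distant. Igkc, an antibody light chain gene of B lineage cells, had 223, 229 and 252 normalized counts in control and 83.1, 59.2 and 95.5 in M-Δx3,4 libraries, and H2-Aa, an MHC class II gene, had 143, 239 and 244 against 56.7, 45.6 and 46.6. For both genes the groups do not overlap, while the summed B cell markers above, most of them Cd79b, overlap. The B cell marker Ms4a1 had 2.32, 3.07 and 1.16 normalized counts in control and 0 in each M-Δx3,4 library, without overlap but too few to be tested, and the part of B lineage RNA in the Hnrnpd result was not tested. For Hnrnpab the most alike genes were Wdr11 (0.08), Pik3ap1 (0.10) and Ran (0.11), and for Hnrnpdl Rnf14 (0.10), Cse1l (0.13) and Atad1 (0.13). Hnrnpab and Hnrnpdl were not close to each other (0.39, rank 681 of 4722 seen from Hnrnpdl). Of the 14 other genes within 250 kb of Hnrnpd, 4 had a count and 3 could be tested. Rasgef1b and Enoph1 had log2 fold changes of -0.02 and -0.11. The transcript listed under Gm17092 lies on the opposite strand just upstream of the Hnrnpd start, where GENCODE vM21 gives it another gene name. It had 17.4, 16.3 and 31.3 normalized counts in control and 13.7, 11.7 and 7.64 in M-Δx3,4 libraries, without overlap, and differed by -0.98 on the log2 scale (SE 0.52, edgeR adjusted p = 0.984).

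Of 12 genes for proteins that bind or modify AUF1, all tested, 2 had an unadjusted p under 0.05 (Gsk3b and Elavl1), Gsk3b was called higher, 0 were called lower, and the median log2 fold change was 0.25 beside -0.01 over all genes with 1 transcript each. Of those 11875 genes 3.98% had an unadjusted p under 0.05 and 131 were called higher. Gsk3b, a kinase that phosphorylates AUF1, had 53.5, 37.8 and 16.2 normalized counts in control and 58.7, 91.3 and 128 in M-Δx3,4 libraries (log2 difference 1.37, SE 0.47, edgeR adjusted p = 0.984). The groups do not overlap, with control replicate 1 just under M-Δx3,4 replicate 1. Elavl1 had 164, 166 and 244 against 331, 336 and 299 normalized counts (log2 difference 0.75, SE 0.32, edgeR adjusted p = 0.984). Every M-Δx3,4 library was above every control library in 3 of the 12 genes (Gsk3b, Elavl1 and Pabpc1) and under in 0. Of all transcripts tested, 4.1% were higher without overlap and 4.78% lower. Pabpc1, the poly(A)-binding protein found in AUF1 complexes, had 339, 308 and 352 against 511, 466 and 553 normalized counts, a log2 difference of 0.62 (SE 0.30, edgeR adjusted p = 0.984) that was not called. Hspa8, a chaperone of the same complexes, set control replicate 1 apart from the rest, with 305 normalized counts there and 2851 to 4550 in the other libraries. Of the 10 genes of the NMD machinery 0 had an unadjusted p under 0.05, with a median log2 fold change of 0.02. Smg5 had 38.4, 51.1 and 55.7 against 27.4, 33.0 and 20.6 normalized counts. Lyz2, into which the Cre of this line is inserted, had 1992, 1788 and 2201 normalized counts in control and 1342, 882 and 968 in M-Δx3,4 libraries. It differed by -0.91 on the log2 scale (SE 0.30, edgeR unadjusted p = 0.0089 and adjusted p = 0.984), without overlap. M-Δx3,4 replicate 1, with the most p37 of its group, also had the most Lyz2 of its group. The Hnrnpd total of its group was highest in replicate 3, with 162 normalized counts against 147 in replicate 1. Among control libraries, replicate 3 had the most Lyz2 (2201) and the least p37 (69.6). A link between Lyz2 and p37 was not tested.

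**Figure D5:**
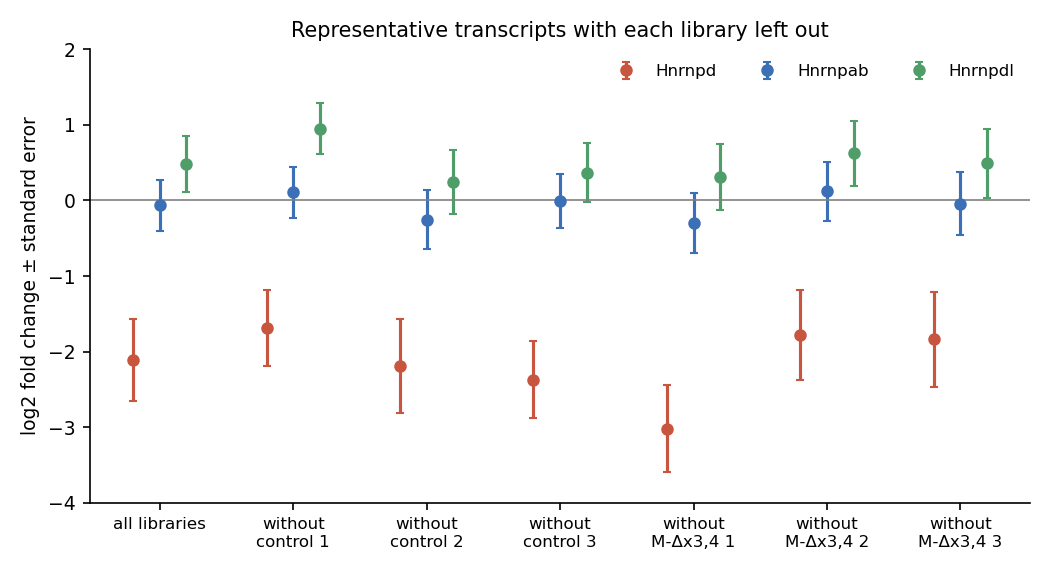
log2 fold change ± standard error (y axis) of the representative transcripts of Hnrnpd (red), Hnrnpab (blue) and Hnrnpdl (green) with all libraries and with each library left out. Hnrnpd stays between -3.02 and -1.69, Hnrnpab between -0.30 and 0.12, and Hnrnpdl between 0.24 and 0.95, the highest value without control replicate 1.

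The call of p37 held with every library left out, and the size depended on M-Δx3,4 replicate 1. Without it the log2 fold change of p37 was -3.02, and the fold of the decrease was larger by more than 1.5 times. Hnrnpab had no call under any library left out. For Hnrnpdl the direction of the representative held in each of the 6 fits with 1 library left out.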

How the data were processed

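Total RNA of 6 cultures (3 control, 3 M-Δx3,4) was converted to 3′ libraries (QuantSeq, Ion Torrent). Per the labels and the study's methods, the authors aligned reads to mm10 (GRCm38.p6) with TopHat2 2.1.1 and Bowtie2 and counted them per 3′ UTR region with metaseqR2. The regions run 249 bases past the annotated ends. The deposited counts are raw reads per region. The authors also deposited TPM values per transcript, which are used beside the counts, their own comparison (p-values, FDR and fold changes), which is not used, and 18 columns of per-sample values under other normalizations, which are not used. Counts of the regions of a transcript were summed here. A total of 52013 transcripts had a count, and 32475 passed the filter of a normalized count above 4.89 in at least 1 library. Factors by the median of ratios, edgeR 4.0.16 quasi-likelihood test, Benjamini-Hochberg adjustment over all transcripts; regions were fitted likewise with their own factors and median, and the region values printed are divided by the transcript factors. Call: unadjusted p under 0.05 and absolute log2 fold change of at least 1. On simulated counts for this comparison (29988 transcripts) 192 of 200 changed transcripts were recovered and 3.62% of the unchanged ones were called, where 3.30% of all transcripts were called in the data. The changed transcripts were drawn from those with higher means, and all were given log2 changes beyond the call limit of 1. Recovery of smaller changes, such as that of Hnrnpdl, was not tested. Ratios and shares were compared by two-sided exact permutation tests (scipy 1.17.1), whose smallest p is 0.1. The representative of Hnrnpab and of Hnrnpdl is the protein coding transcript with the highest mean. For Hnrnpd this rule was not applied, and p37 was set to stand for the AUF1 isoforms. The counted regions of p45 contain those of p37, so its mean cannot be the lower one. It was 209 against 117 normalized counts in control and 141 against 27.2 in M-Δx3,4 libraries. The authors' TPM values, which divide by length, had the opposite order. Their means were 2.7 for p45 against 14.1 for p37 in control and 1.8 against 3.3 in M-Δx3,4 libraries. The p45 transcript differed by -0.57 on the log2 scale (SE 0.41, edgeR adjusted p = 0.984) and was not called. Named genes were the members, for each the 3 genes most alike in log2(normalized count + 1), genes within 250 kb of Hnrnpd, lists of AUF1 partners and NMD factors, Lyz2 and cell markers. Members and lists were chosen with earlier results of these data known. Nothing in the labels says that libraries came from separate mice, so p-values measure the spread between these cultures, and zero counts and limits cover counting error only. Sequences and exon structures are from GENCODE vM21. Alternatives were other normalizations, tests (DESeq2 1.42.0, limma 3.58.1 with voom), filters, feature sets, a replicate block and each library left out.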

Additional observations from a re-analysis of the deposited data

How the results depend on the processing

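The decrease of p37 was called under all 16 alternatives. With each library left out its log2 fold change ran from -3.02 to -1.69 (adjusted p 0.172 to 1, edgeR), and under the other 10 from -2.30 to -2.07 (adjusted p 0.00165, with no filter, to 0.994). Hnrnpab-201 ran from -0.30 to 0.12 with a library left out, and was positive without control replicate 1 (0.11) and without M-Δx3,4 replicate 2 (0.12). It ran from -0.07 to -0.03 otherwise. Hnrnpdl-202 ran from 0.24 to 0.95 with a library left out and from 0.48 to 0.57 otherwise, and was never called. The number of member transcripts called was 7 with every library left out, 4 with identical transcripts taken once and 1 with 1 transcript per gene, both by construction. Of the 33 member region entries tested, many of which share reads, 16 were called, 15 to 18 with a library left out and 6 with at least 10 counts in every library. Over all genes 1071 transcripts were called, 710 to 3224 with a library left out (3224 without control replicate 1, 710 without control replicate 3), 696 with DESeq2, 1715 with no filter, 466 with filterByExpr, 265 with at least 10 counts in every library, 365 with 1 transcript per gene and 685 with the replicate block. With a library left out, the difference in the ratio of p37 to Hnrnpab-201 ran from -2.66 to -2.01, and that to Hnrnpdl-202 from -3.35 to -2.63. The difference in the distal share of Hnrnpd ran from 29.6 to 43.7 percentage points with a library left out. The distal share difference of Hnrnpab ran from -0.24, without M-Δx3,4 replicate 2, to 4.8 points, and that of Hnrnpdl from -9.7 to -0.36. Deviations from the group means correlated at -0.21, 0.54 and -0.31 for replicates 1 to 3 over 4723 genes. These values differ in sign, so they cannot show whether equal replicate numbers pair the samples. With the replicate number as a block, p37 had a log2 fold change of -2.26 (adjusted p = 0.186, edgeR), Hnrnpab-201 of -0.07 and Hnrnpdl-202 of 0.56, with the same calls. Where causes are not given by construction, the cause was not tested. At 0 to 4 counts, reads in exons 3 to 5 of Hnrnpd are below what this depth can compare.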
